A study of Homo sapiens with 4 samples.

Results

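The plakins are a family of very large proteins that tie the cytoskeleton to cell junctions and to other filaments. Here 6 plakin genes other than plectin were examined, chosen by exact symbol from the gene labels of the deposited crosslink sites: DSP, DST, MACF1, EPPK1, PPL and EVPL, out of 14416 genes with a listed site. They were measured by iCLIP, in which UV light links RNA to protein in living cells, the protein is immunoprecipitated, and the ends of the cDNAs mark the nucleotide that was in contact. Wild-type MCF10A cells, an established, non-transformed line of human breast epithelial cells, were used throughout, with 2 replicates immunoprecipitated with an antibody to PDCD4, a tumour suppressor that binds RNA, and 2 with isotype control IgG. No treatment separated the groups, and a single cell line stands for breast epithelium here. Each immunoprecipitation was deposited as 1 list that pools its replicates, so no spread between replicates can be given, no test between PDCD4 and IgG was possible, and all intervals are 95% intervals for counting error only.

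Desmoplakin (DSP) anchors keratin filaments to desmosomes, the spot junctions between epithelial cells. Periplakin (PPL) and envoplakin (EVPL) were found as partners in the cornified envelope of stratified epithelia and also bind intermediate filaments, and epiplakin (EPPK1) consists of plakin repeat domains and associates with keratin networks. Dystonin (DST, also called BPAG1) and MACF1 are spectraplakins, whose long forms bridge actin and microtubules, while the epithelial form of dystonin joins keratins to the hemidesmosomes that hold basal cells to their matrix. All of them are long mRNAs, and DST and MACF1 are also among the long genes of the genome, with most of their length in introns.

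The nucleotides with the highest score in the PDCD4 list, where a score is the number of cDNAs counted at a site, are shown with 14 nt of reference genome on each side because they are the strongest single contacts of these genes. The crosslinked base is in capitals, and each sequence is given on the strand of its gene, 5′ to 3′. EPPK1 is left out.
DSP exon 1, coding, score 5, chr6:7541993-7542021: gcgctacgaggtgaCcagcggcggcgggg
DSP intron 1, score 5, chr6:7551942-7551970: tgtttccaaagggaAttcttggccacacc
DSP exon 18, coding, score 5, chr6:7575324-7575352: gtcgttgttggccaCtatgaagacagaac
DSP exon 24, coding, score 5, chr6:7584524-7584552: aagaaaatcttaccTatctgcaactaaaa
DST exon 72, coding, score 7, chr6:56515507-56515535: tgacagaaacacaaTcaatcatctctcag
MACF1 intron, score 6, chr1:39124543-39124571: aaattaggcaaattTacaggaataaagag
PPL exon 15, coding, score 6, chr16:4892171-4892199: gctactgcggattgAacctgagaagacgc
EVPL intron 9, score 6, chr17:76020724-76020752: agaccctgtctctaTacaaatagatacat
The crosslinked base was A, C or T (U in the RNA), the strongest contacts of DST and PPL were coding, and those of MACF1 and EVPL were intronic. The 30 nt that follow each crosslinked base occur once in the genome.

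The genes are located on the GRCh38 build at chr6:7541338-7586714 for DSP (ENSG00000096696, plus strand), chr6:56457987-56954830 for DST (ENSG00000151914, minus strand), chr1:39081316-39487177 for MACF1 (ENSG00000127603, plus strand), chr8:143857324-143878467 for EPPK1 (ENSG00000261150, minus strand), chr16:4882507-4960741 for PPL (ENSG00000118898, minus strand) and chr17:76004502-76027306 for EVPL (ENSG00000167880, minus strand). The canonical coding sequence ran from 5.27 kb in PPL to 23.5 kb in DST, and the gene from 21.1 kb in EPPK1 to 497 kb in DST.

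The 6 genes together had 441 sites and 1125 cDNAs in the PDCD4 list, of 158922 sites and 409308 cDNAs, and 193 sites and 471 cDNAs in the IgG list, of 111361 sites and 276139 cDNAs. Per 10000 cDNAs of each list this was 27.5 with PDCD4 and 17.1 with IgG, a log2 ratio of 0.69 (0.53 to 0.84), computed here and throughout with 1 cDNA added to each sum. The mean score of a site was similar, 2.55 with PDCD4 and 2.44 with IgG, so the larger sum went with more sites and not with higher ones. Scores were low, as in the lists as a whole: 4 of the 441 PDCD4 sites and 0 of the 193 IgG sites had a score greater than 5, against 1.48% and 0.69% of all sites, and the highest was 7. No plakin site carried the label of another gene. RNA abundance was not analysed here, so a share is not an amount of binding per RNA molecule.

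The long spectraplakins held most of the cDNAs. With PDCD4, DST had 8.55 cDNAs per 10000 (147 sites), MACF1 6.89 (113 sites) and DSP 5.77 (85 sites). PPL followed with 2.57 (46 sites), EPPK1 with 2.49 (37 sites) and EVPL with 1.22 (13 sites), and among all genes DST ranked 77 and EVPL 2168 by their sum. With IgG the values were 7.17 for DST (83 sites), 4.38 for MACF1 (50 sites), 3.30 for DSP (34 sites), 1.20 for EPPK1 (14 sites), 0.797 for PPL (9 sites) and 0.217 for EVPL (3 sites). In the PDCD4 list the counting intervals of PPL and EPPK1 overlapped almost entirely (2.10 to 3.11 and 2.03 to 3.03), and those of MACF1 (6.11 to 7.74) overlapped in part with DST (7.68 to 9.50) and with DSP (5.05 to 6.55). With IgG, MACF1 overlapped with DSP and EPPK1 with PPL, and the other neighbours in that order did not overlap.

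**Figure D1:**
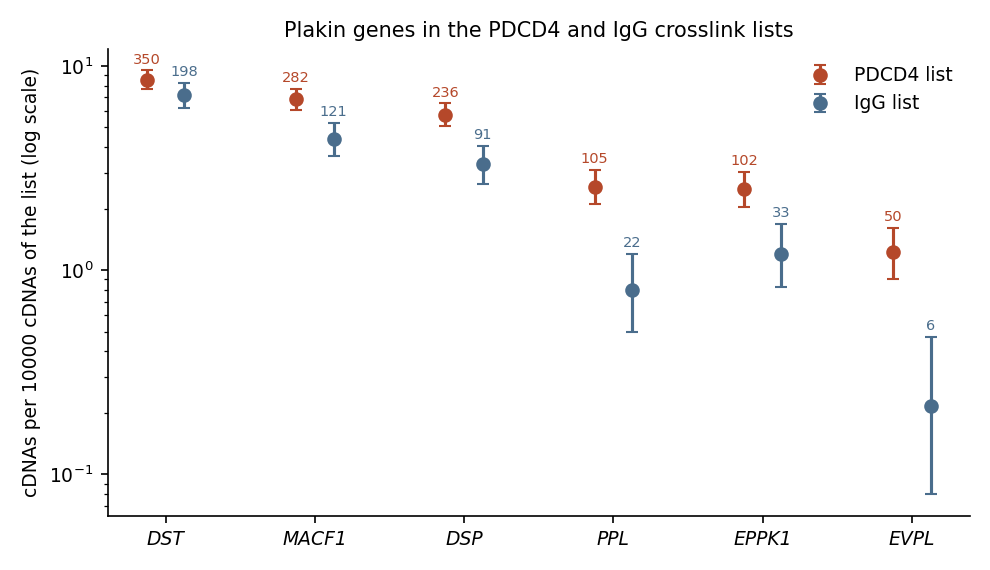
Share of each plakin gene with PDCD4 and with IgG, in cDNAs per 10000 cDNAs of the list on a log scale, with 95% counting intervals and the number of cDNAs above each point. Every gene lies higher in the PDCD4 list, from 8.55 against 7.17 for DST to 1.22 against 0.217 for EVPL.

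Every plakin had a larger share with PDCD4 than with IgG, and the order of the ratios was the reverse of the order of the IgG sums, which are their denominator. Per the authors' methods, IgG crosslink sites were also removed before PDCD4 peaks were called, so the PDCD4 sums can depend on IgG sites too. How far this changed the ratios or their order was not tested. EVPL had 50 cDNAs with PDCD4 and 6 with IgG, a log2 ratio of 2.30 (1.16 to 3.44). PPL had 105 and 22, a log2 ratio of 1.64 (0.99 to 2.29), and EPPK1 102 and 33, a log2 ratio of 1.03 (0.47 to 1.59). DSP was at 0.80 (0.45 to 1.14, 236 and 91 cDNAs), MACF1 at 0.65 (0.34 to 0.95, 282 and 121 cDNAs) and DST at 0.25 (-0.00 to 0.50, 350 and 198 cDNAs). Neighbours in this order did not differ beyond counting error, the difference between MACF1 and DST being 0.40 (-0.00 to 0.79). EVPL, PPL, EPPK1 and DSP each exceeded DST by more than counting error, by 2.05 (0.88 to 3.21), 1.39 (0.69 to 2.08), 0.78 (0.17 to 1.39) and 0.55 (0.12 to 0.98). Summed, DST and MACF1 gave a log2 ratio of 0.42 (0.22 to 0.61) and the other 4 genes 1.12 (0.86 to 1.38). By number of sites instead of cDNAs, the intervals of EVPL (1.29, -0.31 to 2.90), EPPK1 (0.83, -0.03 to 1.69) and DST (0.30, -0.08 to 0.69) included 0. Those of PPL (1.72, 0.73 to 2.70), DSP (0.78, 0.22 to 1.35) and MACF1 (0.65, 0.17 to 1.12) lay above 0.

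Of the 6 genes, 3 reached a log2 ratio of 1, which is 2-fold. Among all 14416 genes with a listed site 27.6% did so, and among the 7305 genes with at least 20 cDNAs over both lists, to which every plakin belongs, 16.4%. A ratio above 0 was found for 6 of 6 plakins and for 46.2% of those 7305 genes. The median log2 ratio was 0.91 over the plakins and -0.10 over the 7305 genes. Within that distribution, 63.2% of genes lay below DST, 75.8% below MACF1, 79.7% below DSP, 84.5% below EPPK1, 92.1% below PPL and 96.3% below EVPL. Plectin, the family member left out, had 4278 cDNAs with PDCD4 and 193 with IgG and a log2 ratio of 3.90 (3.69 to 4.10). It exceeded EVPL, the plakin nearest to it, by 1.60 (0.44 to 2.76).

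**Figure D2:**
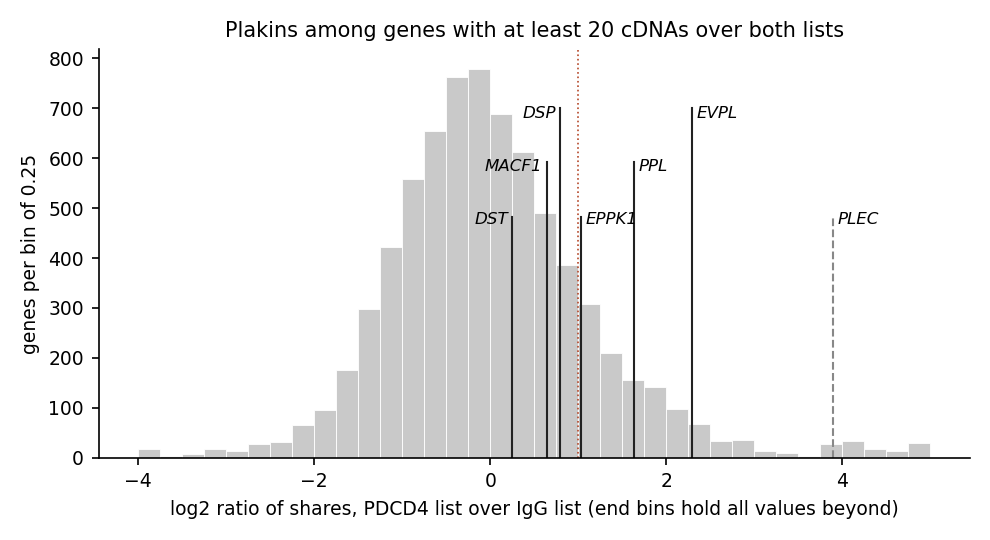
Number of genes by log2 ratio of their share in the PDCD4 list over the IgG list, in bins of 0.25, for the 7305 genes with at least 20 cDNAs over both lists; genes with no site in a list are placed by the cDNA added to each sum. Solid lines mark the 6 plakins, the dashed line marks PLEC and the dotted line a log2 ratio of 1: DST (0.25), MACF1 (0.65) and DSP (0.80) lie left of it, EPPK1 (1.03) on it, and PPL (1.64) and EVPL (2.30) right of it.

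Where the sites lay within the genes differed between the lists. With PDCD4, 295 of 441 plakin sites were in coding sequence, 66.9% (62.4% to 71.1%, Wilson), and 20.2% were in introns. With IgG 40.9% were coding and 44.0% were intronic. The whole lists differed in the same direction, with 20.9% of PDCD4 sites and 9.72% of IgG sites in coding sequence and 49.6% and 66.0% in introns. Coding cDNAs of the plakins had a log2 ratio of 1.28 (1.06 to 1.51, 750 and 207 cDNAs), and intronic cDNAs one of -0.30 (-0.57 to -0.02, 234 and 194 cDNAs). The same ratios over all genes were 1.11 (1.09 to 1.13) for coding sequence and -0.44 (-0.45 to -0.43) for introns. Measured against the coding cDNAs of each list, the plakins therefore stood at 0.18 (-0.04 to 0.40), an interval that includes 0, while plectin stood at 3.92 (3.59 to 4.25).

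By gene, the coding ratio was above 0 beyond counting error for all 6. It was 3.63 (1.95 to 5.31) for PPL, 2.49 (0.76 to 4.22) for EVPL, 1.75 (0.93 to 2.58) for EPPK1, 1.58 (1.11 to 2.05) for MACF1, 1.07 (0.66 to 1.48) for DSP and 0.76 (0.40 to 1.12) for DST. Against the coding total of the lists, PPL remained higher with PDCD4, at 2.52 (0.85 to 4.20), and MACF1 just so, at 0.47 (0.00 to 0.95). DSP at -0.04 (-0.45 to 0.38), EPPK1 at 0.65 (-0.18 to 1.48), EVPL at 1.39 (-0.34 to 3.11) and DST at -0.35 (-0.71 to 0.01) had intervals that included 0. Introns of MACF1 had a smaller share with PDCD4 than with IgG, at a log2 ratio of -0.70 (-1.19 to -0.21), those of DST were at -0.38 (-0.80 to 0.05), and those of EVPL were at 1.43 (0.02 to 2.85) on 19 and 4 cDNAs. Against the intron total of the lists, MACF1 was at -0.25 (-0.74 to 0.23) and DST at 0.07 (-0.36 to 0.49), intervals that include 0. EVPL was at 1.87 (0.46 to 3.29) by that measure.

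**Figure D3:**
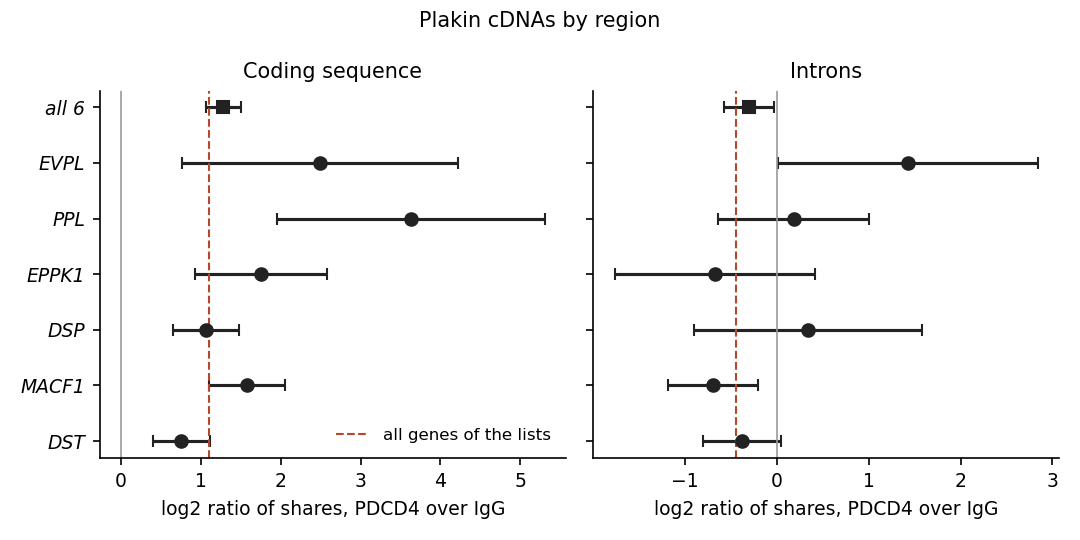
Log2 ratio of shares, PDCD4 over IgG, for the coding (left) and intronic (right) cDNAs of each plakin gene and of all 6 together, with 95% counting intervals; the dashed line is the same ratio over all genes, 1.11 for coding sequence and -0.44 for introns. All 6 genes lie above 0 for coding sequence, and MACF1, DST and EPPK1 lie below 0 for introns.

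Per length, coding sequence was far more densely covered than intron. Over the 6 genes the PDCD4 list had 7.93 cDNAs per kb of coding sequence and 0.258 per kb of intron, a 30.6-fold difference, and the IgG list 2.19 and 0.214, a 10.2-fold difference. DSP had the densest coding sequence with PDCD4, at 22.1 cDNAs per kb, followed by PPL at 10.2, DST at 7.08, MACF1 at 6.80, EPPK1 at 4.52 and EVPL at 3.89. In EPPK1 and EVPL coding sequence exceeded intron by less with PDCD4, 1.81-fold and 3.13-fold. The value of EPPK1 was 4.42-fold when only the coding positions that occur once in the genome were counted, here without the cDNA added to each sum. With IgG the intron of EPPK1 had 2.53 cDNAs per kb and all coding positions 0.852, a log2 ratio of coding over intron of -1.57 (-2.64 to -0.50). The single-copy coding positions had 1.95 per kb. That comparison rests on 13 cDNAs on each side and was given no interval.

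Desmoplakin had its sites almost wholly in exons: 70 of 85 PDCD4 sites were coding and 4 were intronic, and with IgG 24 of 34 were coding. Its last exon, exon 24 at chr6:7582642-7586714, encodes the plakin repeats and carries the 3′UTR; it held 34 sites and 99 cDNAs with PDCD4 and 19 sites and 50 cDNAs with IgG. Exon 23, at chr6:7579275-7581569, held 18 sites and 51 cDNAs with PDCD4 and 3 sites and 8 cDNAs with IgG. The coding part of exon 24 was at 24.7 cDNAs per kb and the rest of the coding sequence at 20.8 with PDCD4, against 10.2 and 5.21 with IgG. The log2 ratio of PDCD4 over IgG was higher in the rest of the coding sequence than in exon 24 by 0.71, with an interval (-0.12 to 1.53) that includes 0. The 1797 nt of exon 23 that are coding in the full-length form DSP-201 but not in the shorter DSP-202 held 11 sites and 31 cDNAs with PDCD4 and 3 sites and 8 cDNAs with IgG. DSP also had the only plakin position listed for both antibodies, and 12 of its 34 IgG sites lay within 20 nt of a PDCD4 site, as against 14 of the 159 IgG sites of the other genes. The coding sequence of DSP was also the most densely covered with PDCD4, and closeness was not compared at equal density. Per the authors' methods, IgG crosslink sites were removed before PDCD4 peaks were called, which limits the number of shared positions.

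Periplakin had the largest coding ratio of the members, on few IgG cDNAs. Its 9 IgG sites included 1 coding site, whereas 23 of its 46 PDCD4 sites were coding, 9 were in the 3′UTR and 14 in introns. The last exon, exon 22 at chr16:4882507-4886047, held 20 sites and 44 cDNAs with PDCD4 and 1 site and 2 cDNAs with IgG. In intron 1, which is 26.0 kb long, the lists did not differ beyond counting error, with 9 sites and 20 cDNAs with PDCD4 and 6 sites and 15 cDNAs with IgG, a log2 ratio of -0.18 (-1.11 to 0.76).

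Envoplakin had 13 PDCD4 sites, with scores from 3 to 6 and a median of 4, against a median of 2 over all plakin sites. All 7 coding sites lay in the last exon, exon 22 at chr17:76006845-76010543, between 64.6% and 87.7% of the way along the coding sequence. These 7 sites held 24 cDNAs in 3438 coding nt, and the 2661 coding nt of the exons before it held none. Those 2661 nt are split over many short exons, and sites were rare at the 3′ ends of exons, as described below. Whether the contrast goes beyond that was not tested. The remaining sites were 2 in the 3′UTR and 4 in introns. With IgG it had 3 sites, each with a score of 2.

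Epiplakin is encoded almost entirely by a single exon of repeated plakin domains, and no site was listed in the stretches that recur. For 8586 of its 15264 coding positions, 56.2%, the next 30 nt occur again elsewhere in the genome without a mismatch, against 4.35% for EVPL and 0 or 0.031% for the other members. None of the 37 PDCD4 sites and 14 IgG sites lay at such a position. The 23 coding PDCD4 sites, with 69 cDNAs, were all in the 6678 nt that occur once, at 10.3 cDNAs per kb there, and the 5 coding IgG sites at 1.95 cDNAs per kb. On those positions alone its density with PDCD4 was close to that of PPL (10.2 per kb). How reads with several matches were treated is not given in the sources used here. The 3′UTR held 10 sites and 21 cDNAs with PDCD4, and 8 of these sites, with 15 cDNAs, formed a single cluster in which neighbours were at most 20 nt apart.

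**Figure D4:**
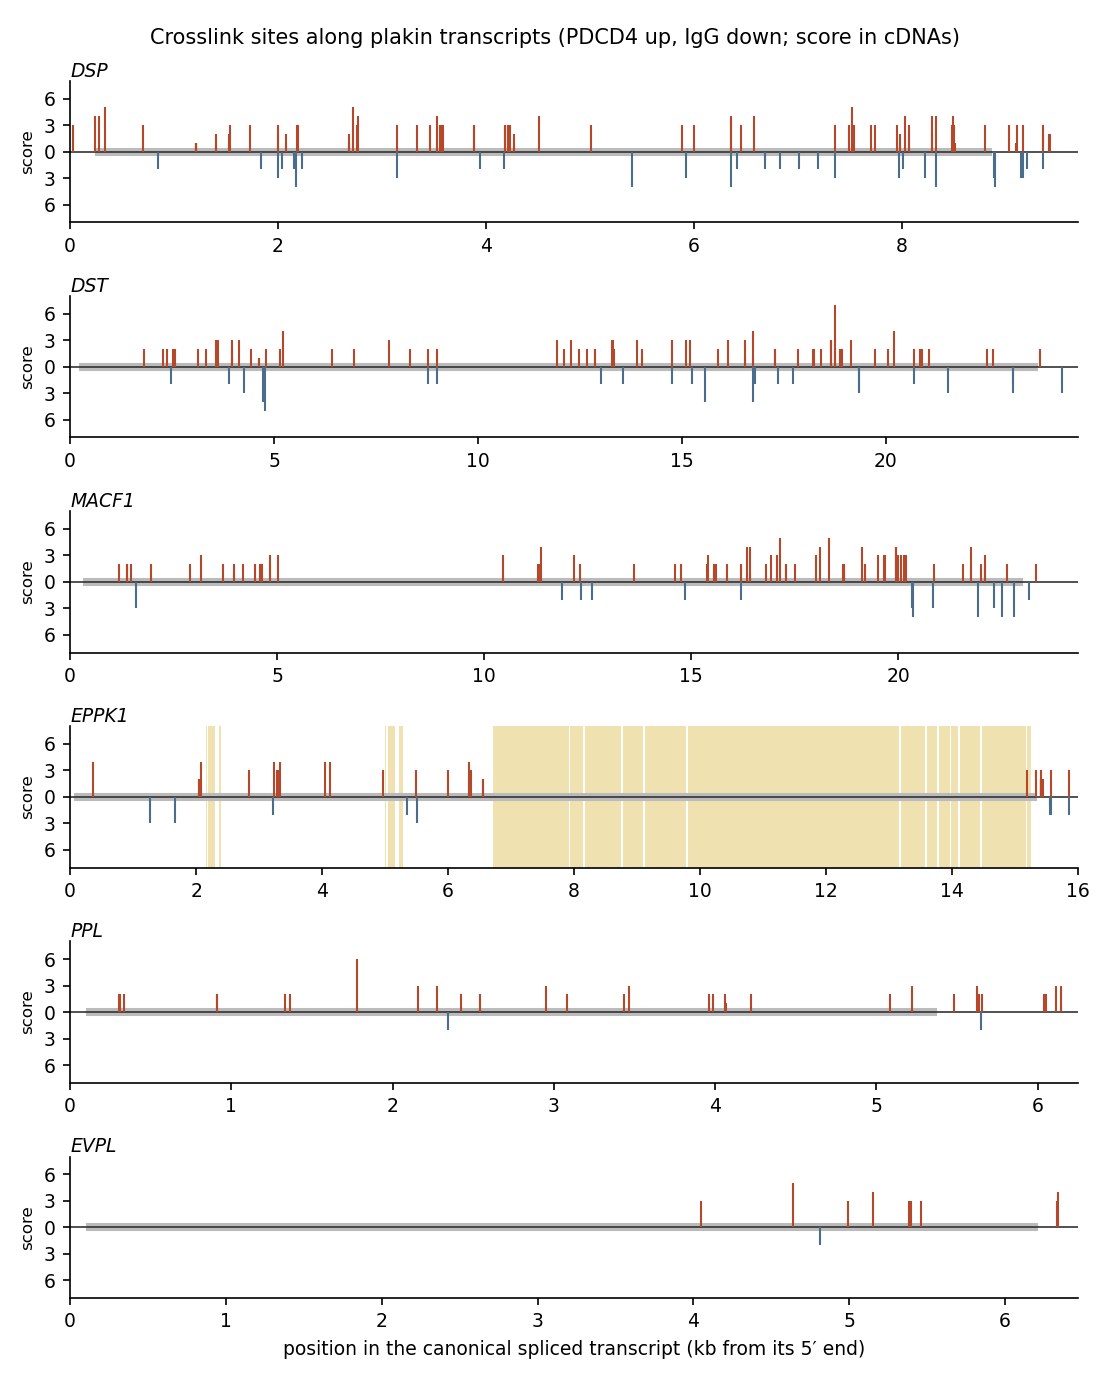
Crosslink sites along the canonical spliced transcript of each plakin, in kb from its 5′ end, with the PDCD4 list drawn upwards and the IgG list downwards and the height giving the score in cDNAs; the grey bar is the coding sequence and the shaded stretches of EPPK1 are coding positions whose next 30 nt occur more than once in the genome. EVPL has coding sites only in its last exon, the 5451 nt exon of MACF1 holds 1 PDCD4 site, and no EPPK1 site falls in a shaded stretch.

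Dystonin, the member with the lowest ratio, was divided by isoform. The epithelial form, transcript DST-205 with 2649 codons, shares 3151 coding nt with the canonical long form DST-241 of 7818 codons. The 18525 coding nt of the long form beyond the end of DST-205 held 51 sites and 124 cDNAs with PDCD4 and 17 sites and 42 cDNAs with IgG, a log2 ratio of 0.97 (0.47 to 1.47). The 4410 nt that are coding only in DST-205 held 20 sites and 47 cDNAs with PDCD4 and 10 sites and 26 cDNAs with IgG, a log2 ratio of 0.26 (-0.42 to 0.94). The difference between these parts was 0.71 (-0.13 to 1.55), and with the 3′UTR of DST-205 counted to the epithelial part it was 0.76 (0.00 to 1.52), so that it exceeded counting error by the second measure only, and barely. Per length the epithelial part was the more densely covered in both lists when set against all 18525 nt of the long-form part. With PDCD4 it had 10.7 against 6.69 cDNAs per kb (log2 ratio 0.69, 0.21 to 1.17). With IgG it had 5.90 against 2.27 (1.40, 0.70 to 2.09). The long-form part includes the sparsely covered 5508 nt exon described below, at 2.36 cDNAs per kb with PDCD4 and 0.726 with IgG. Whether the difference holds without that exon, or without the 3′ ends of exons, where sites were rare, was not tested. The 3′UTR of DST-205, 923 nt, held 6 of the 7 PDCD4 sites in DST 3′UTRs. In the 116 kb intron 4 of the long form, PDCD4 had 8 sites and 20 cDNAs and IgG 18 sites and 38 cDNAs, a log2 ratio of -1.46 (-2.23 to -0.70). An IgG site there that is 5′UTR in another form was not counted.

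MACF1 and DST each have a coding exon of over 5 kb that only some of their forms contain, and both exons were sparsely covered. Of the annotated coding transcripts that span it, 3 of 7 contain it in MACF1 and 2 of 9 in DST. In MACF1, exon 37 at chr1:39331203-39336653 (5451 nt) held 1 PDCD4 site with 3 cDNAs and no IgG site, and the remaining 17214 coding nt held 70 sites with 174 cDNAs and 13 sites with 38 cDNAs. Its PDCD4 density was thus 0.550 cDNAs per kb, against 10.1 per kb in the rest, a log2 ratio of -3.79 (-5.22 to -2.36) with PDCD4. In DST, exon 40 at chr6:56603837-56609344 (5508 nt) held 6 sites and 13 cDNAs with PDCD4 and 2 sites and 4 cDNAs with IgG. Its log2 density ratio to the rest of the coding sequence was -1.71 (-2.50 to -0.92) with PDCD4 and -1.76 (-3.08 to -0.43) with IgG. The exon of DST was thus sparse with both antibodies and that of MACF1 sparse with PDCD4 and without a listed site with IgG; the use of these exons in MCF10A cells was not measured here.

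MACF1 coding cDNAs lay mostly towards the 3′ end, with 33.9% in the stretch from 60% to 80% of the coding sequence and 35.6% beyond it with PDCD4. With IgG the same stretches held 10.5% and 65.8%, the latter 25 of 38 cDNAs. A position towards the 3′ end was thus common to both lists. The sparsely covered exon of 5451 nt described above takes up nearly all of the stretch from 20% to 40%. That stretch held 1.7% of the coding cDNAs with PDCD4 and 0.0% with IgG. The shares were not adjusted for this exon, and whether the lean towards the 3′ end holds without it was not tested. The densest exon was exon 81 at chr1:39447432-39447587 with 4 sites and 14 cDNAs, and in DST it was exon 72 at chr6:56515450-56515668 with 4 sites and 15 cDNAs; neither exon had an IgG site. The highest MACF1 site, with a score of 6, lay in an intron that belongs only to forms starting upstream of the canonical one. Intron 58 of MACF1, 33.7 kb long, contains stretches that are exons in other forms. At its positions that are exonic in no form, PDCD4 had 1 site and 2 cDNAs and IgG 4 sites and 13 cDNAs. Both lists also had sites in the stretches that are coding or 5′UTR in other forms, more of them with PDCD4, so the intron as a whole was not poorer with PDCD4.

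**Figure D5:**
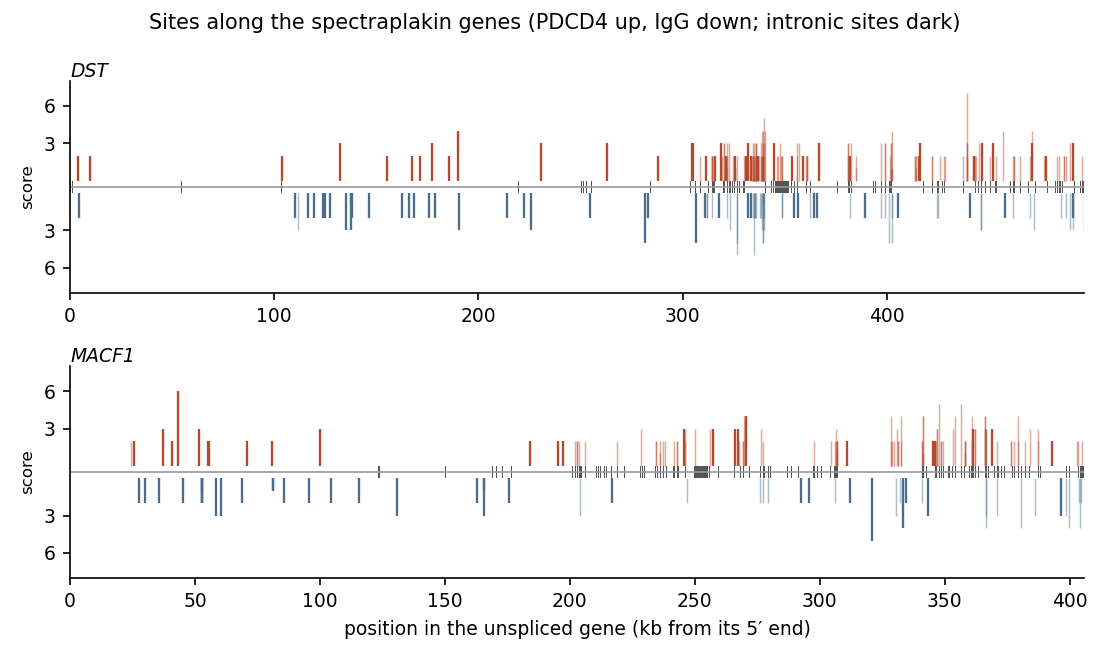
Sites along the unspliced DST and MACF1 genes, in kb from the 5′ end of the gene, with PDCD4 upwards and IgG downwards, the height giving the score in cDNAs, intronic sites dark, other sites pale and canonical exons as grey blocks. In the 116 kb intron 4 of DST the IgG list has 18 dark sites and the PDCD4 list 8, and pale PDCD4 sites crowd where the exons lie.

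Sites were rare at the 3′ ends of exons in these genes. In the 135 internal coding exons of at least 150 nt, the last 60 nt held 1 PDCD4 site and the 60 nt before them held 62, a log2 ratio of -4.98 (-7.01 to -2.95). With IgG the counts were 0 and 13. The canonical coding exons of all genes showed the same depletion, with 424 and 4907 PDCD4 sites (-3.53, -3.67 to -3.39) and 160 and 1504 IgG sites (-3.22, -3.46 to -2.99), so it is not particular to plakins or to PDCD4. Counts per exon of these many-exon genes are therefore counts over the part of each exon away from its 3′ end.

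The crosslinked base was U at 42.0% (37.4% to 46.6%) of plakin PDCD4 sites, and at 46.7% of all PDCD4 sites. Within coding sequence the share was 34.9% (29.7% to 40.5%) for the plakins and 34.4% for all genes. DSP differed from this: A was the base at 27 of its 70 coding sites, 38.6% (28.0% to 50.3%), as against 16.8% of coding sites of the whole list, while A made up 31.9% of its coding sequence and 25.9% of all canonical coding sequences. In the other A-rich members, DST (34.4% A) and MACF1 (31.2% A), A was the base at 24.5% (16.9% to 34.0%) and 12.8% (7.12% to 22.0%) of coding sites. With IgG, A was the base at 7 of 24 DSP coding sites, 29.2% (14.9% to 49.2%). These intervals take sites as independent, but the 85 PDCD4 sites of DSP formed 55 clusters with neighbours at most 20 nt apart. They also take no account of the choice of DSP and A among all members and bases. The nucleotide after the site was G at 2.95% of plakin sites and 3.78% of all PDCD4 sites.

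The proteins that plakins join were described in the same way, by lists taken by symbol. Among the 7305 genes with at least 20 cDNAs, 16.4% were at or above a log2 ratio of 1 and 16.1% at or below -1, and the counts of these short lists are a description beside those shares. Of the desmosome partners of DSP, 9 had at least 20 cDNAs, 0 reached a log2 ratio of 1, 2 were at or below -1, and the median was -0.21. Those with most PDCD4 cDNAs were PKP4 (plakophilin 4, 94 and 123 cDNAs, -0.95), JUP (plakoglobin, which links desmoplakin to cadherins, 75 and 29, 0.77) and PKP3 (plakophilin 3, 61 and 25, 0.69). DSP, at 0.80, was thus close to JUP and PKP3. Of the 7 hemidesmosome genes, 3 reached a log2 ratio of 1 and the median was 0.64. ITGB4, the integrin chain that binds plectin and the epithelial form of dystonin, had 439 and 118 cDNAs (1.32), LAMB3 had 401 and 122 (1.14) and LAMA3 251 and 119 (0.50), the latter encoding chains of the laminin that hemidesmosomes hold.

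Keratins, the filaments that DSP, EPPK1 and PPL bind, were measured for 6 of 9 genes, 4 of which reached 1, with a median of 1.24. KRT7 had 808 and 267 cDNAs (1.03), KRT5 352 and 74 (1.67) and KRT6A 165 and 40 (1.45). Of the 13 genes of the cornified envelope, in which PPL and EVPL take part, 4 were measured, 0 reached 1 and the median was 0.32; S100A11 (48 and 29, 0.14), S100A10 (47 and 22, 0.49) and ANXA1 (31 and 14, 0.53) led by PDCD4 cDNAs, and involucrin, loricrin and filaggrin had no site listed under their Ensembl identifiers. Among 16 microtubule and actin partners of spectraplakins 1 reached 1, 4 were at or below -1 and the median was -0.23. ACTB had 1079 and 179 cDNAs (2.02), ACTG1 316 and 131 (0.70) and CAMSAP2, which binds microtubule minus ends, 152 and 129 (-0.33). All 9 epithelial and basal markers had listed sites, KRT14 with 3 cDNAs only, and of 8 markers of other cell types only ACTA2 had any, with 3 cDNAs in each list.

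The genes most like each member by their log2 shares in both lists, which are only 2 values, were JADE2, RP11-12J10.3 and DYNC1H1 for DSP, NFIC, CTNNA1 and CEP170B for DST, NOTCH1, CD44 and BCL9L for MACF1, ALDOA, MKNK2 and EEFSEC for EPPK1, VCAN, USP33 and ACAP3 for PPL, and NDUFV1, TSPO and BTF3 for EVPL. The distance to the third of these was between 0.03 for EVPL and 0.15 for DST on the log2 scale. Each member thus had other genes with nearly its values in both lists.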

How the data were processed

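Each deposited list held 1-nt crosslink sites with a strand, a gene label and a score, which is a raw count of cDNAs, not normalized. The authors called sites with iCount against the Ensembl GRCh38 genome (release 88), pooled the 2 replicates of each immunoprecipitation, kept sites past a false discovery rate filter and, per their methods, removed IgG crosslink sites before calling PDCD4 peaks. The number of sites past such a filter can grow with the depth of a list, and weak sites can be missing. Alignment settings are not given in the sources used here.

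Sites labelled with a member's symbol were summed at all scores and divided by the total of the list; totals are given in the report. Log2 ratios used a pseudocount of 1 and intervals the Poisson error of both counts. They were tested only on simulated independent Poisson counts per gene. That test does not cover several cDNAs at a site, the site filter or the spread between replicates. For parts of the members a ratio was left out where a list had no site. Over all genes and for the partner genes such ratios were kept, by way of the pseudocount. PCR duplicates and cross-linking bias are not covered. Regions came from GENCODE release 44, and where transcripts disagreed a site counted as coding before UTR, UTR before non-coding exon, and exon before intron; 99.28% of PDCD4 and 99.24% of IgG sites fell inside their labelled gene, and 0 lay beyond a chromosome end. Genes named are the 6 members, PLEC, in each partner list up to 3 genes with the largest PDCD4 sum, and for each member the 3 nearest genes; involucrin, loricrin, filaggrin, KRT14 and ACTA2 were named after their values were seen. The members and lists were chosen with earlier results of these data known. Alternatives were score thresholds, site numbers, a pseudocount of 5, other totals, left-out positions or labels, coding sites, a single transcript per gene and windows of 50 nt. Software was Python 3.11.15 (numpy 2.4.6; pandas 2.3.3), with plots by matplotlib 3.10.9.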

Additional observations from a re-analysis of the deposited data

How the results depend on the processing

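The summed log2 ratio of the plakins stayed within its counting interval when scores of at least 2, numbers of sites, a pseudocount of 5, a total without the mitochondrial chromosome or without the 10 largest genes of each list were used, or when positions in both lists or sites of several genes were left out. With coding sites only, set against the coding total, it was 0.18. Of 48 values of single genes under these alternatives, 46 were above 0 and 45 lay within the interval. Those outside came with coding sites only, where DSP turned to -0.035, DST to -0.35 and PPL was 2.52. Several alternatives could move a ratio little: other totals shift all genes equally, no plakin site had several labels, and 1 plakin position was in both lists. The number of plakins at 2-fold was 3, or 2 with numbers of sites, a pseudocount of 5 or coding sites only. With scores greater than 5 no plakin site was left in the IgG list, so these ratios and the number of genes could not be given, and the 4 PDCD4 sites left gave 52.0% of cDNAs in coding sequence, 48.0% in introns and 0.0% beyond 80% of the coding sequence, against 66.7%, 20.8% and 25.4% at all scores. With a single transcript per gene, 60.2% of PDCD4 and 36.9% of IgG cDNAs were coding and 30.3% and 49.5% intronic, against 43.9% and 41.2% for IgG over all transcripts. Without DST 17.9% of PDCD4 cDNAs were intronic. In the partner lists 8 genes reached 2-fold, and 4 with scores greater than 5, where 7 genes had 20 cDNAs. The cause was not tested, apart from the fewer sites left by the threshold. No paired analysis was possible because each list pools its replicates, and for the same reason no replicate could be left out. At 3 IgG sites for EVPL and 9 for PPL, depth limits their ratios most.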
